A study of Mus musculus with 30 samples.

Results

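Carcinoma in situ of the mouse mouth, in which malignant squamous cells still lie above an unbroken basement membrane, was compared with normal oral tissue across all genes. Its 6 samples were those labelled Carcinoma in situ for pathological stage, and the 3 samples labelled Normal were the other side, 9 of the 30 samples in the series. The 7 dysplasia samples and the 6 invasive carcinoma samples, the stages on either side of it, were used to place it. The study profiled a model of oral squamous cell carcinoma made with 4-nitroquinoline-1-oxide (4NQO), whose metabolites bind to bases in DNA. Every one of these groups carries 1 description: male C57BL/6J mice, 6 weeks old at the start, and 4NQO in the drinking water at 100 ug/mL for 10 weeks. Because the normal samples carry it too, it is not known from the labels whether the normal mice drank the carcinogen, and the age at sampling is not given there. The labelled tissue is oral squamous cell carcinoma on all samples, normal ones included, so the site of each specimen is not known. Sample codes begin with C in both carcinoma stages and with D in normal tissue, so a batch that follows the letters cannot be told apart from stage.

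The lining of the mouth is a stratified squamous epithelium. Keratinocytes divide in a basal layer that holds keratins 5 and 14 and rests on laminins and collagens, and they differentiate upwards into flat cells that crosslink envelope proteins and cornify. When such an epithelium is wounded, its keratinocytes switch to keratins 6, 16 and 17, release alarmins and chemokines and call in leukocytes. Electrophilic carcinogens and oxidants act on the KEAP1 and NRF2 pair: once NRF2 escapes KEAP1 it binds antioxidant response elements in front of genes for glutathione synthesis, conjugation and export. Interleukin-17 from T cells acts on keratinocytes through NF-kappaB and IkappaB-zeta to induce chemokines that attract neutrophils.

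Levels are given as CPM, read counts scaled to a common library size with TMM factors, and differences as log2 fold changes of carcinoma in situ over normal ± 1 standard error. A gene is called when edgeR's quasi-likelihood test gave a Benjamini-Hochberg adjusted p under 0.05 over all 17638 genes tested. Library totals were 22489231 to 27931067 counts in carcinoma in situ and 19926988 to 24163924 in normal tissue. The labels do not say that samples of a group came from separate animals, so a p-value here reflects only how far these samples vary, which may be in part technical.

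The specimens held tissue other than epithelium, in unequal amounts. Transcripts of a salivary gland list summed to 91.2 to 27936 CPM in the 6 carcinoma in situ samples, and to 36471, 189.7 and 242.9 CPM in normal replicates 1, 2 and 3. Erythroid transcripts summed to 100.2 to 212 CPM in carcinoma in situ and to 960.4, 311 and 296 CPM in normal tissue, so normal replicate 1 stood apart in both lists. Skeletal muscle transcripts differed between the groups: they summed to 39205 to 67960 CPM in carcinoma in situ and to 78295, 108065 and 83453 CPM in normal tissue, so that no carcinoma in situ sample reached the lowest normal one. Mitochondrial transcripts took 5.25% to 8.24% of the counts in carcinoma in situ and 10.4% to 13.7% in normal tissue. Keratinocyte markers were high everywhere: an oral suprabasal list summed to 34512 to 65259 CPM in carcinoma in situ and to 52372, 40942 and 62288 CPM in normal tissue. In bulk samples, fewer cells of a type and less RNA per cell cannot be told apart, and this holds for each group of marker genes given here. A fit with a muscle score as a covariate, the mean log2 CPM of the skeletal muscle list, was run as an alternative. Its counts are given beside a list where they differ from the main ones by over 1.5 times.

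**Figure D1:**
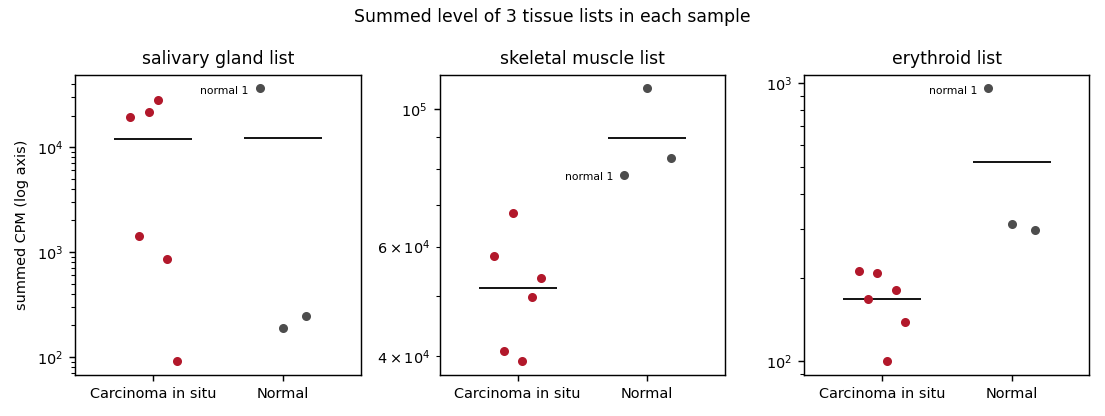
Summed CPM (log axis) of the salivary gland, skeletal muscle and erythroid lists in each of 6 carcinoma in situ samples (red, left) and 3 normal samples (grey, right); bars mark group means. Salivary sums span both groups, all 6 carcinoma in situ samples lie below all 3 normal samples for muscle, and normal replicate 1 is the highest in the salivary and erythroid panels.

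Relative to normal tissue, carcinoma in situ held more RNA of the listed small proline-rich envelope proteins (13 of 13 tested, beside 19.4% of all genes). It also held more RNA of NRF2 targets (26 of 32), DNA replication genes (25 of 28), the interleukin-17 axis (20 of 25) and MHC class II (10 of 11). It held less RNA of oxidative phosphorylation genes (40 of 40 nuclear ones, beside 18.2% of all genes), Schwann cells and nerve (11 of 18) and part of the oral suprabasal program (8 of 17). With a muscle score in the fit the oxidative phosphorylation count was 4, that of DNA replication 15 and that of nerve 8. Interferon response genes (3 of 33 higher and 3 lower) and fibroblast genes (4 of 38 higher and 5 lower) changed in few members.

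Carcinoma in situ differed from normal tissue in 6630 of the 17638 genes, 37.6% of those tested, which is the background for every count that follows. Of these, 3428 (19.4%) were higher and 3202 (18.2%) were lower in carcinoma in situ. The higher side held the larger folds: 996 called genes were at least 2-fold higher and 586 at least 2-fold lower, and at 8-fold the numbers were 180 and 35. In 2495 genes (14.1%) every carcinoma in situ sample lay above every normal sample, and in 2198 (12.5%) every one lay below. The median log2 fold change over all genes was 0.02. Without normal replicate 2 the count of calls was 4238, and with the muscle score in the fit it was 2628. A test against a fold of 1.5 in place of no change called 748 genes, 559 of them higher.

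The largest rises, among called genes with at least 10 CPM in carcinoma in situ, were in genes of the cornified envelope and of innate defence. Sprr2d encodes a small proline-rich protein that is crosslinked into the cornified envelope (GRCm38 chromosome 3, 92339140 to 92340873, ENSMUSG00000042212.3). It was at 179 to 759 CPM, median 378, in carcinoma in situ, against 0.434, 0.450 and 0.615 CPM in normal tissue (9.71 ± 1.82, adjusted p = 0.00037). The alarmin gene S100a8 was at 323 to 1604 CPM, median 793, against 2.82, 1.41 and 1.41 CPM (8.88 ± 1.64, adjusted p = 0.00033), and its partner S100a9 at 371 to 2205 CPM, median 982, against 4.01, 1.30 and 1.49 CPM (9.01 ± 1.73, adjusted p = 0.00044). In all 3 genes the lowest carcinoma in situ sample was far above the highest normal one, and without normal replicate 1 the log2 fold change of S100a9 was 9.71. Saa3, an acute phase protein, had 9641 counts over the 6 carcinoma in situ samples and 3 over the 3 normal ones. The ratio of pooled levels, summed counts over summed scaled library sizes, was 1294 with a counting interval of 442 to 6274. Its level within carcinoma in situ was uneven, from 3.28 to 190.2 CPM, median 41.3.

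Other genes with large rises act outside the envelope. Chil1, a chitinase-like secreted protein, was at 71.3 to 207 CPM, median 131, in carcinoma in situ and at 1.73, 1.35 and 0.967 CPM in normal tissue (6.64 ± 1.34, adjusted p = 0.0007). Klk6, a secreted kallikrein protease, was at 5.72 to 29.2 CPM, median 19.1, against 0.0542, 0.113 and 0.176 CPM (7.16 ± 1.52, adjusted p = 0.001; 5.84 with the muscle score). Sh2d5, an adaptor protein with an SH2 domain, was at 1.70 to 38.6 CPM, median 11.2, against 0.379, 0.113 and 0.176 CPM (6.05 ± 1.001, adjusted p = 0.00011; 4.87 with the muscle score). Uox, the urate oxidase best known from liver, was at 21.99 to 81.7 CPM, median 48.2, against 0.976, 0.732 and 0.615 CPM (5.96 ± 1.46, adjusted p = 0.003). The groups did not overlap in any of them, and the smallest gap was that of Sh2d5, whose log2 fold change was 6.64 without normal replicate 1.

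**Figure D2:**
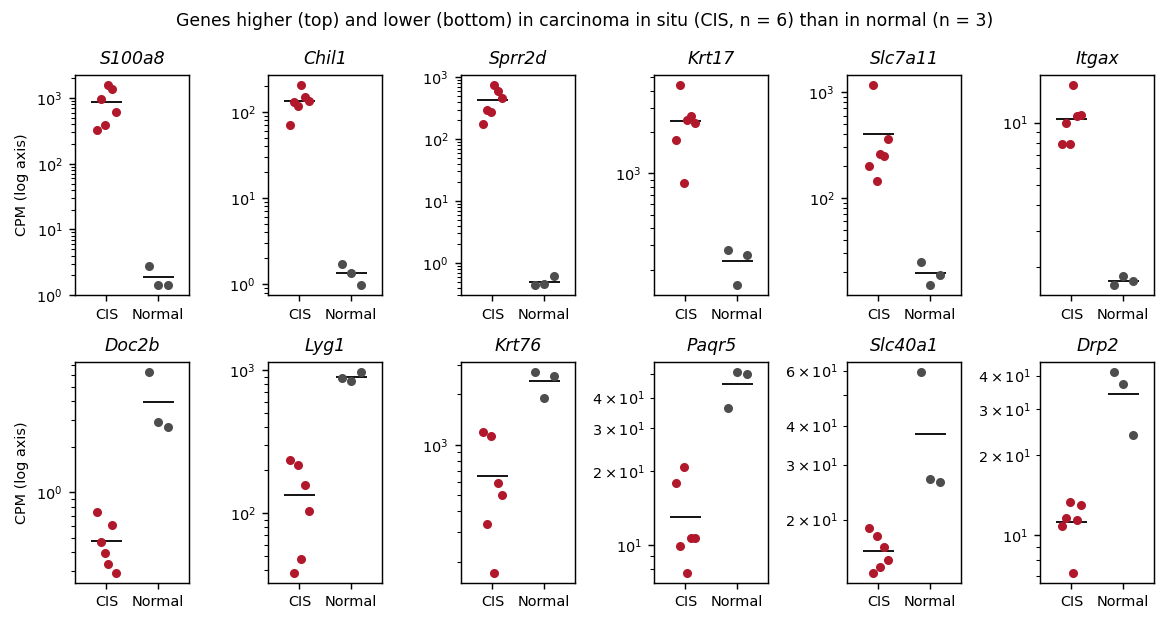
CPM (log axis) of 12 genes in each of 6 carcinoma in situ samples (red, left) and 3 normal samples (grey, right), with bars at the group means. The top row holds genes that rose and the bottom row genes that fell; the groups do not overlap in any panel, and the spread within carcinoma in situ is widest for Slc7a11, Lyg1 and Krt76.

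The rises with the 8 smallest adjusted p were mostly smaller in size. The exception was Cdkn2a, which encodes an inhibitor of cyclin-dependent kinases and the MDM2 inhibitor ARF and was at 3.23 to 18.5 CPM, median 11.2, in carcinoma in situ, against 0.217, 0.113 and 0.176 CPM in normal tissue (5.88 ± 0.61, adjusted p = 5.7e-07). Itgax, the CD11c integrin chain of dendritic cells, was at 7.85 to 15.3 CPM, median 10.3, in carcinoma in situ and at 1.63, 1.80 and 1.71 CPM in normal tissue (2.60 ± 0.25, adjusted p = 3.2e-07). Ccl22, a chemokine that draws CCR4-bearing T cells, was at 4.46 to 8.64 CPM, median 5.80, against 0.488, 0.450 and 0.572 CPM (3.57 ± 0.36, adjusted p = 4.9e-07). Nod2, an intracellular sensor of bacterial wall fragments, was at 21.8 to 45.4 CPM, median 27.6, against 7.70, 7.49 and 9.14 CPM (1.92 ± 0.20, adjusted p = 5.7e-07). The lowest carcinoma in situ sample was above the highest normal one in each of these 4 genes. Tmprss4, a membrane-bound serine protease, Adam8, a membrane metalloproteinase, Ikbke, a kinase upstream of NF-kappaB, and the long noncoding RNA gene AI506816 were also among the 8 smallest adjusted p. Their log2 fold changes were 1.96 ± 0.21, 1.77 ± 0.19, 0.90 ± 0.10 and 1.41 ± 0.14, with adjusted p of 5.7e-07, 5.7e-07, 5.7e-07 and 3.2e-07, and all 6 carcinoma in situ samples were above all normal samples in each.

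Several of the 12 largest falls were uneven across the normal samples. Klk1b9 and Klk1, glandular kallikreins of salivary ducts, were at 0 to 0.262 CPM, median 0.143, and 0.254 to 4.99 CPM, median 0.562, in carcinoma in situ, against 2.22, 0.394 and 47.3 CPM for Klk1b9 and 78.3, 22.02 and 22.1 CPM for Klk1 in normal tissue. Their log2 fold changes were -6.93 ± 1.13 (adjusted p = 0.0001) and -4.95 ± 1.45 (adjusted p = 0.0097); that of Klk1b9 was -3.27 without normal replicate 3, and that of Klk1 was -4.05 without normal replicate 1 and -6.14 without carcinoma in situ replicate 10. They were -8.55 and -6.11 with the muscle score. Klk1b9 belongs to a family of near-identical copies, so its reads may be shared with them. Slc4a1, the red cell anion exchanger, was at 0 to 0.330 CPM, median 0.124, against 53.3, 0.0563 and 0.264 CPM, with a log2 fold change of -6.85 ± 1.78 (adjusted p = 0.0043) that was -0.16 (adjusted p = 0.97) without normal replicate 1, -7.44 without normal replicate 2 and -7.43 without normal replicate 3. Limma-voom did not call it either (adjusted p = 0.16). So the call of Slc4a1 rests on 1 normal library. The call of Duox2, an oxidase that makes hydrogen peroxide, was also lost without normal replicate 1, but a smaller fall stayed. All 3 normal samples were above every carcinoma in situ sample for Duox2. Duox2 was at 2.33 to 9.21 CPM, median 3.94, in carcinoma in situ, against 51.9, 13.5 and 18.9 CPM in normal tissue (-2.53 ± 0.73, adjusted p = 0.0091; -3.14 with the muscle score, -1.72 and adjusted p = 0.11 without normal replicate 1).

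Krtap4-1, Krtap4-2, Krtap4-6, Krtap4-9 and Krtap9-1, hair keratin-associated protein genes with near-identical copies, fell by 2.48 ± 0.92, 2.68 ± 0.88, 2.56 ± 0.98, 2.52 ± 0.98 and 2.95 ± 0.92 on the log2 scale (adjusted p of 0.037, 0.019, 0.043, 0.045 and 0.014). None of the 5 was called with only the 2 groups in the fit (adjusted p of 0.06 for Krtap9-1 to 0.13 for Krtap4-9) or with the muscle score (0.068 for Krtap9-1 to 0.16 for Krtap4-6). Krtap4-1, Krtap4-6 and Krtap4-9 were also not called without any 1 of the 3 normal samples or without carcinoma in situ replicate 2, 7, 10 or 11, and Krtap4-2 not without normal replicate 1.

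Other falls were shared by the 3 normal samples. Lyg1, a goose-type lysozyme, was at 38.3 to 236 CPM, median 129.8, in carcinoma in situ, against 885, 844 and 976 CPM in normal tissue (-2.76 ± 0.50, adjusted p = 0.00028). Doc2b, a calcium sensor of vesicle fusion, was at 0.292 to 0.734 CPM, median 0.429, against 6.29, 2.93 and 2.73 CPM (-3.05 ± 0.34, adjusted p = 1.1e-06). Paqr5, a membrane progestin receptor, was at 7.73 to 20.9 CPM, median 10.7, against 36.1, 50.96 and 49.8 CPM (-1.81 ± 0.22, adjusted p = 5.1e-06). In these 3 genes every carcinoma in situ sample was below every normal one. Pdlim4, an actin-associated PDZ-LIM protein, Dusp18, a dual-specificity phosphatase, Vldlr, a lipoprotein receptor, and Clec11a, a secreted lectin that acts as a growth factor, fell by 1.35 ± 0.16, 1.42 ± 0.19, 1.24 ± 0.17 and 1.58 ± 0.21 on the log2 scale. Their adjusted p were 3.2e-06, 1.1e-05, 1.1e-05 and 1.2e-05. Slc40a1, the iron exporter ferroportin, fell to 13.5 to 18.8 CPM, median 15.6, in carcinoma in situ, against 59.5, 27.03 and 26.3 CPM in normal tissue (-1.24 ± 0.17, adjusted p = 1.1e-05), with normal replicate 1 the highest of the 3.

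**Figure D3:**
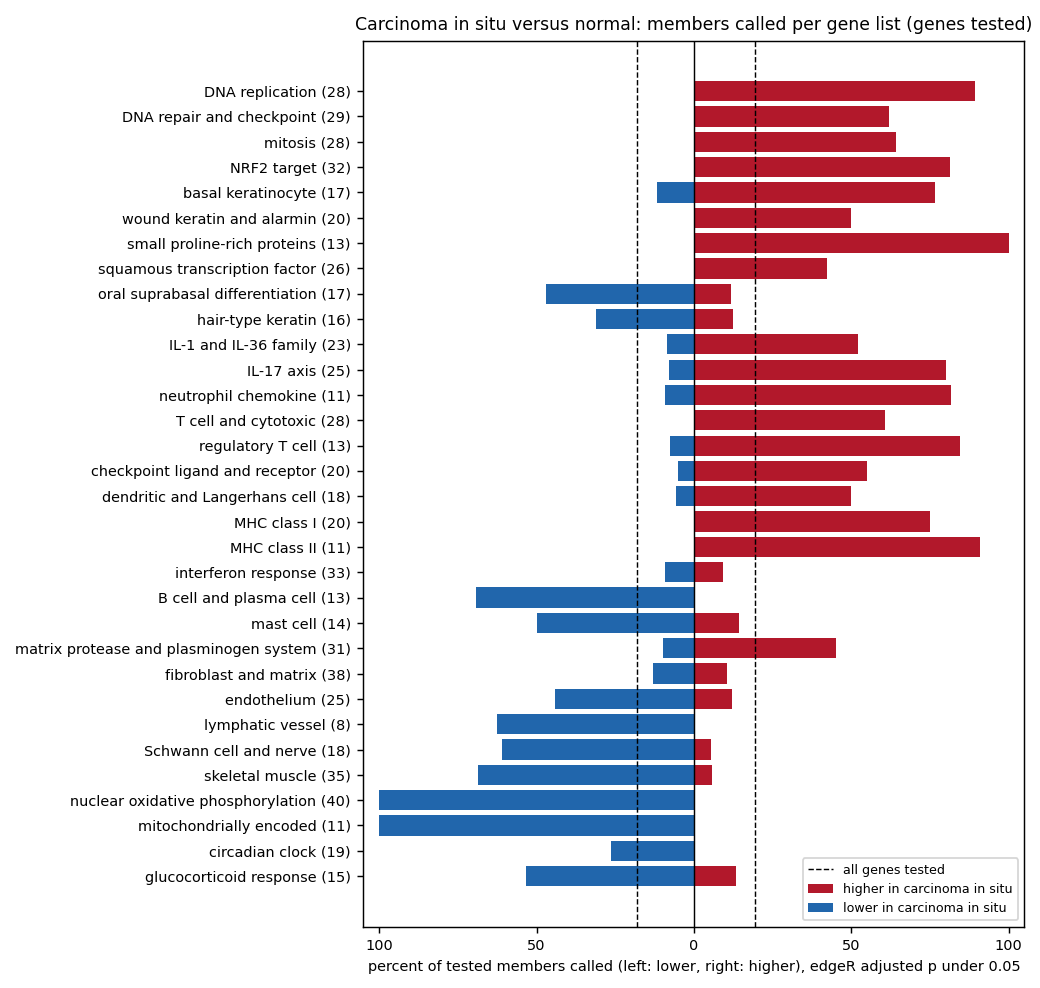
Share of the tested members of 32 gene lists (tested members in brackets) that were called higher (red, to the right) or lower (blue, to the left) in carcinoma in situ than in normal tissue, in percent; dashed lines mark the shares over all genes tested, 19.4% and 18.2%. Small proline-rich proteins, MHC class II and DNA replication genes have the longest red bars, and the 2 oxidative phosphorylation lists the longest blue ones.

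The listed small proline-rich protein genes rose as a block. Of 14 genes in the list 13 passed the filter on low counts, and all 13 were called higher, beside 19.4% of all genes. Their median log2 fold change was 5.46, or 5.33 with the genes at 0 in normal tissue set to their bound. Sprr3, a family member that was counted in the oral suprabasal list instead, was not called (0.03 ± 0.23, adjusted p = 0.94). Sprr2i was at 191 to 675 CPM, median 392, in carcinoma in situ, against 7.97, 4.45 and 5.67 CPM in normal tissue (6.01 ± 0.92, adjusted p = 6.2e-05). Sprr2h was at 60.7 to 184 CPM, median 116, against 7.05, 3.49 and 6.99 CPM (4.36 ± 0.75, adjusted p = 0.00018). Sprr2e and Sprr2f, nearly silent in normal tissue, had 4821 and 6044 counts over carcinoma in situ and 1 and 2 over normal tissue. The ratios of pooled levels were 1941, with a counting interval of 348 to 76662, and 1216, with 337 to 10046. Sprr1b, whose product is another envelope precursor, was at 206 to 667 CPM, median 364, against 148, 133 and 181 CPM (1.49 ± 0.35, adjusted p = 0.0021). The rise of Sprr1b was not called with the muscle score (adjusted p = 0.061). Its rise was smaller than those of the Sprr2 genes named here, although all 6 samples were above the normal ones. Genes of the Sprr2 family are close copies on chromosome 3, so the split of reads among them is uncertain.

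Of 12 small proline-rich gene windows among the RefSeq promoters, 9 (75.0%) hold the AP-1 site TGANTCA on either strand within 250 bases before the start, against 6.75% of all 32851 windows; dimers of JUN and FOS proteins bind it. The stretches of 5 Sprr2 genes are shown, and not every Sprr2 gene with a large rise is among them. They were chosen in part because the site sits at a like distance in each, 187 to 192 bases before the start site, so that likeness is not a result. Capitals mark the site; the stretches are RefSeq sequence of GRCm38.p6, plus strand, 5′ to 3′.
Sprr2d, chr3:92338902-92338998: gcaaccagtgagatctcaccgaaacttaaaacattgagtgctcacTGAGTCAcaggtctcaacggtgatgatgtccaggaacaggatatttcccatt
Sprr2e, chr3:92351905-92352001: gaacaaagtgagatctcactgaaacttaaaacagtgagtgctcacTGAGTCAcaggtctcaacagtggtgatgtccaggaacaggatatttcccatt
Sprr2f, chr3:92364945-92365041: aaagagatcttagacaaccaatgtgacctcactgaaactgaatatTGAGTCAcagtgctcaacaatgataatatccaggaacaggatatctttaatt
Sprr2h, chr3:92385442-92385538: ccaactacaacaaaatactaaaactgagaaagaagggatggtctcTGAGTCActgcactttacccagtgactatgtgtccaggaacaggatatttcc
Sprr2i, chr3:92407753-92407849: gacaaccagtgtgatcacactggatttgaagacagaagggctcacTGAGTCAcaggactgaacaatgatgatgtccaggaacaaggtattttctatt
The 5 genes arose as copies of each other, so their sites are not independent examples, and a match is a description of letters, not of binding.

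Among keratins, those of wounded epithelium rose and some of the oral suprabasal layers fell. Krt6b was at 6089 to 8495 CPM, median 7169, in carcinoma in situ, against 1657, 947 and 1311 CPM in normal tissue (2.46 ± 0.27, adjusted p = 9.1e-07), and Krt17 at 858 to 4422 CPM, median 2379, against 279, 153 and 254 CPM (3.39 ± 0.48, adjusted p = 2.3e-05; 2.55 with the muscle score). Krt16 was at 2751 to 5832 CPM, median 4513, against 1381, 996 and 1415 CPM (1.82 ± 0.30, adjusted p = 7.8e-05). In these 3 genes the groups did not overlap. Krt6b has a close paralogue, Krt6a, which rose by 0.97 ± 0.20 (adjusted p = 0.00067), so the share of each is uncertain. In the wound keratin and alarmin list 10 of 20 members were higher and none lower. Krt76, a keratin of the hard palate and gingiva, was at 172 to 1196 CPM, median 548, in carcinoma in situ, against 2721, 1909 and 2569.6 CPM in normal tissue (-1.87 ± 0.43, adjusted p = 0.0016). Crnn, the calcium-binding protein cornulin of upper squamous layers, was at 25.5 to 134 CPM, median 57.4, against 371, 265 and 352 CPM (-2.19 ± 0.45, adjusted p = 0.00076). Both ranged widely within carcinoma in situ, yet every sample was below every normal one.

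The oral suprabasal list as a whole was mixed: 8 of its 17 tested members were lower and 2 were higher. Krt24 fell to 84.9 to 189.6 CPM, median 117, in carcinoma in situ, against 332, 291 and 381 CPM in normal tissue (-1.40 ± 0.26, adjusted p = 0.00028), and Emp1, an epithelial membrane protein, fell by 1.02 ± 0.17 on the log2 scale (adjusted p = 0.0001). The members that rose were Endou, an endoribonuclease, by 1.44 ± 0.22 (adjusted p = 3.7e-05), and Tgm1, the transglutaminase that crosslinks envelope proteins, by 0.84 ± 0.16 (adjusted p = 0.00041). Epidermal keratins moved apart as well. Krt1 was at 51.1 to 158 CPM, median 83.99, against 12.9, 7.49 and 7.91 CPM (3.40 ± 0.69, adjusted p = 0.00072; 2.62 with the muscle score), whereas its usual partner Krt10 was at 202 to 441 CPM, median 277, against 568, 499 and 592 CPM (-0.89 ± 0.26, adjusted p = 0.0093). Casp14, the protease of epidermal cornification, rose by 1.39 ± 0.26 (adjusted p = 0.00033). The epidermal cornification list, which holds these 3 genes, did not rise as a whole. Of 22 members 4 were higher and 4 lower, beside 19.4% and 18.2% of all genes, with a median log2 fold change of -0.28. With the muscle score 2 were higher and 2 lower. Without normal replicate 1 or 3 the number lower was 1, and without carcinoma in situ replicate 2 or 11 it was 2. Lor, Ivl and Flg were not called (adjusted p of 0.14, 0.48 and 0.22).

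**Figure D4:**
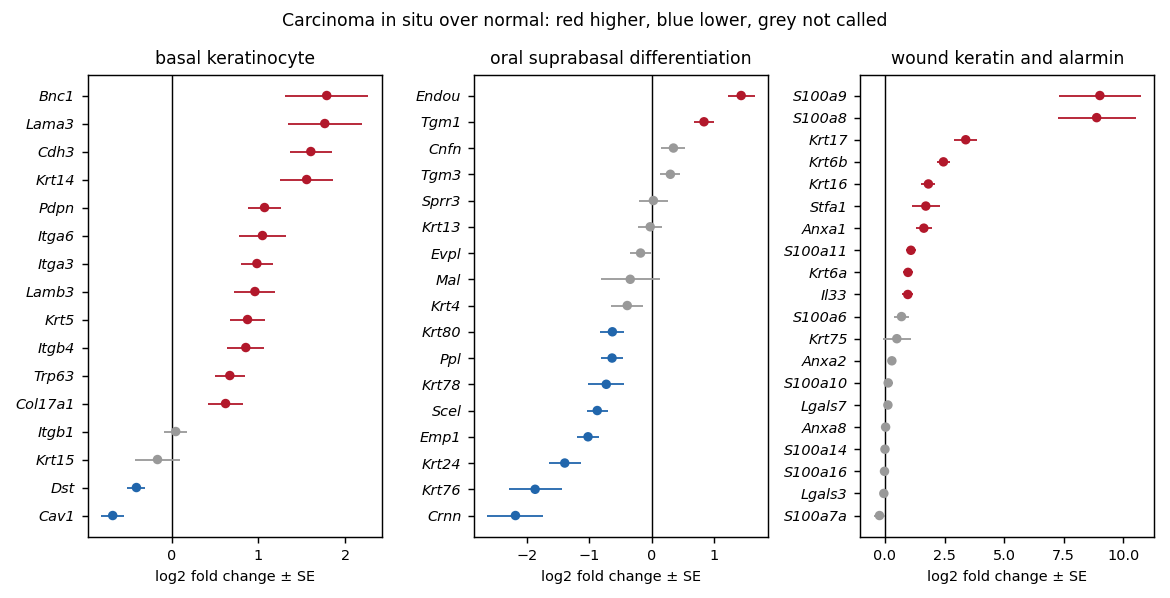
Log2 fold change of carcinoma in situ over normal ± 1 standard error for tested members of the basal keratinocyte (1 member not drawn), oral suprabasal differentiation and wound keratin and alarmin lists; red members were called higher, blue members lower and grey members were not called. In the middle panel Endou and Tgm1 lie on the right, and Crnn and Krt76 lie farthest to the left.

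Genes of the basal layer and of its attachment rose in 13 of 17 tested members, and 2 fell. Cdh3, the P-cadherin of basal cells, was at 48.04 to 104 CPM, median 68.7, in carcinoma in situ, against 26.4, 18.5 and 27.2 CPM in normal tissue (1.60 ± 0.24, adjusted p = 4.2e-05). Col7a1, whose collagen anchors the basement membrane and which is outside that list, was at 109 to 252 CPM, median 182, against 62.8, 41.3 and 53.1 CPM (1.78 ± 0.27, adjusted p = 4.2e-05). Cdh3 and Col7a1 were separated in every sample from normal tissue. With the muscle score in the fit 6 members were called higher. The 2 that fell were Cav1, the caveolar coat protein that muscle, fat and vessels also express, and Dst, which links filaments to hemidesmosomes; 1 of them was called lower without normal replicate 2.

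Transcription factors and junction genes of squamous cells changed with smaller folds. In the squamous transcription factor list 11 of 26 were higher and none lower, with 7 higher without normal replicate 2 and 5 with the muscle score. Cebpa, a factor of keratinocyte differentiation, and Pitx1, a homeobox factor of the oral ectoderm, rose by 0.73 ± 0.13 and 0.61 ± 0.14 (adjusted p of 0.00018 and 0.0015), and Trp63, the p63 regulator of squamous identity, rose by 0.67 ± 0.17 (adjusted p = 0.0038; 0.33 and adjusted p = 0.13 with the muscle score). Gjb2, connexin 26, was at 423 to 1364 CPM, median 834, against 269, 223 and 280.4 CPM (1.75 ± 0.33, adjusted p = 0.0003; 1.07 with the muscle score), and Dsg3, a desmosomal cadherin of lower layers, rose by 1.20 ± 0.24 (adjusted p = 0.00044). Gjb5, another connexin, fell by 0.72 ± 0.18 on the log2 scale (adjusted p = 0.0028). The adhesion and junction list had 10 of 28 members higher and 5 lower. That list was sensitive: without normal replicate 1, 2 or 3 the members called higher were 5, 4 and 6, without carcinoma in situ replicate 2, 10 or 11 they were 5, 6 and 5, and with the muscle score 3. Without normal replicate 1 the members called lower were 3.

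DNA replication genes were higher in carcinoma in situ. Of 28 tested, 25 were called higher and none lower, beside 19.4% of all genes, and in 19 all 6 samples were above all normal ones, beside 14.1%. Mcm5, a subunit of the replicative helicase, was at 20.9 to 41.04 CPM, median 35.7, in carcinoma in situ, against 11.4, 9.07 and 13.3 CPM in normal tissue (1.60 ± 0.22, adjusted p = 1.4e-05). Ccne1, the cyclin that drives entry into S phase, was at 4.76 to 11.8 CPM, median 8.97, against 2.98, 1.69 and 2.55 CPM (1.84 ± 0.34, adjusted p = 0.00025; 1.16 with the muscle score). Mcm10, which helps to start replication forks, rose by 1.24 ± 0.23 (adjusted p = 0.00023). Between the groups there was no overlap in Mcm5, Ccne1 or Mcm10. With the muscle score in the fit 15 of the list were called. Mitosis genes were less stable: 18 of 28 were called higher, but 4 without normal replicate 1, 7 without normal replicate 2, 11 without carcinoma in situ replicate 11 and 0 with the muscle score. All 6 samples lay above the normal ones in 0 mitosis genes.

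Repair and checkpoint genes rose alongside, in 18 of 29 members with none lower. Exo1, a nuclease of mismatch repair, was at 3.06 to 5.58 CPM, median 4.77, in carcinoma in situ, against 1.63, 1.52 and 2.07 CPM in normal tissue (1.42 ± 0.23, adjusted p = 7.8e-05). Fanca, of the Fanconi complex that acts on crosslinks, rose by 1.41 ± 0.24 (adjusted p = 0.00011), and Chek1, the kinase of the replication checkpoint, by 1.32 ± 0.23 (adjusted p = 0.00015). With the muscle score the count of called members was 10.

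Regulators of the first gap phase moved in both directions, 7 of 16 higher and 4 lower, with 3 higher with the muscle score and 2 lower without normal replicate 1. Cdkn2b, the inhibitor p15, which lies beside Cdkn2a, was at 12.3 to 16.6 CPM, median 14.9, in carcinoma in situ, against 7.75, 7.94 and 7.69 CPM in normal tissue (0.93 ± 0.14, adjusted p = 2.3e-05). Cdk4 rose by 0.58 ± 0.12 (adjusted p = 0.00086), and Rb1, the retinoblastoma protein that CDK4 phosphorylates, fell by 0.39 ± 0.08 on the log2 scale (adjusted p = 0.00046). Among 22 genes that are recurrently mutated in human squamous carcinoma, 9 were higher (4 with the muscle score) and 2 lower. Trp53 was at 52.3 to 64.7 CPM, median 59.1, against 37.1, 38.01 and 44.1 CPM (0.57 ± 0.10, adjusted p = 0.00011). Cul3, the ubiquitin ligase scaffold that works with KEAP1, was at 133 to 174 CPM, median 145, in carcinoma in situ, against 197, 220.4 and 212 CPM in normal tissue (-0.48 ± 0.09, adjusted p = 0.00023). Tgfbr2, a TGF-beta receptor, rose by 0.54 ± 0.11 (adjusted p = 0.00074).

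Targets of p53 did not move together: 8 of 24 were higher and 6 lower. The counts were 5 higher without normal replicate 2, 3 higher with the muscle score and 3 lower without normal replicate 1. Pmaip1, which encodes the apoptosis promoter NOXA, was at 4.11 to 13.9 CPM, median 5.68, in carcinoma in situ, against 1.19, 0.450 and 0.835 CPM in normal tissue (3.04 ± 0.45, adjusted p = 3.6e-05; 2.41 with the muscle score). Bax, another apoptosis promoter, rose by 0.74 ± 0.14 (adjusted p = 0.0003). Phlda3, an inhibitor of AKT, fell to 96.9 to 121 CPM, median 107, in carcinoma in situ, against 215, 184 and 129 CPM in normal tissue (-0.71 ± 0.10, adjusted p = 1.9e-05), and Rrm2b, a ribonucleotide reductase subunit, fell by 0.62 ± 0.12 on the log2 scale (adjusted p = 0.00044). All 6 samples were outside the normal range in each of these 4 genes.

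NRF2 targets were called higher in 26 of 32 genes with none lower, and 21 were with the muscle score in the fit. Akr1b8, an aldo-keto reductase, was at 56.9 to 313 CPM, median 80.8, in carcinoma in situ, against 9.32, 5.18 and 6.73 CPM in normal tissue (4.08 ± 0.47, adjusted p = 3.2e-06). Gclm, the modifier subunit of the enzyme that limits glutathione synthesis, was at 137 to 455 CPM, median 213, against 67.4, 47.1 and 53.7 CPM (2.10 ± 0.27, adjusted p = 8.4e-06). Gpx2, a glutathione peroxidase of epithelia, was at 352 to 900.0 CPM, median 595, against 196, 194 and 183 CPM (1.63 ± 0.21, adjusted p = 8.9e-06). In each the highest value was that of carcinoma in situ replicate 2. Among the glutathione transferases, Gsta1 was at 34.7 to 179.9 CPM, median 61.6, against 9.27, 10.02 and 7.83 CPM (3.17 ± 0.41, adjusted p = 1.1e-05; 2.59 with the muscle score), and Gsta3 at 17.1 to 83.3 CPM, median 20.7, against 11.8, 3.66 and 3.56 CPM (2.35 ± 0.50, adjusted p = 0.001). Without normal replicate 1 the log2 fold change of Gsta3 was 3.17. Gsta genes are close paralogues, so the division of reads between them is uncertain. Prdx1, a peroxiredoxin, rose by 1.22 ± 0.26 (adjusted p = 0.00075).

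The core of the antioxidant response element, TGACNNNGC on either strand, lies within 250 bases before the start in 7 of 31 windows of the NRF2 targets (22.6%), against 10.2% of all windows. Gclm, Gsta3 and Prdx1 are shown as members that rose and hold it, chosen after their values were seen; in capitals is the match, from 113 to 126 bases before the start, in GRCm38.p6, plus strand, 5′ to 3′.
Gclm, chr3:122245378-122245476: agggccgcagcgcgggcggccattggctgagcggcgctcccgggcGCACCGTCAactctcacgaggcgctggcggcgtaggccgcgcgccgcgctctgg
Gsta3, chr1:21240419-21240517: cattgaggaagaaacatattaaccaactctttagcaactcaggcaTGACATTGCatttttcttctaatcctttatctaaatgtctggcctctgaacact
Prdx1, chr4:116685421-116685519: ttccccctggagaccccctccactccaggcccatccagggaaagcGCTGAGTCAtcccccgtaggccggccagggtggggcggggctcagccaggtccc
The capitals of Gclm and Prdx1 are the motif read on the other strand, and those of Prdx1 also hold the AP-1 letters.

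Slc7a11, the cystine transporter that feeds glutathione synthesis, was at 144 to 1178 CPM, median 253, in carcinoma in situ, against 24.7, 14.8 and 18.8 CPM in normal tissue (4.36 ± 0.57, adjusted p = 1.2e-05; 3.59 with the muscle score). The top value was again that of carcinoma in situ replicate 2, and without it the log2 fold change was 3.64 (adjusted p = 8.2e-07). Slc3a2, the heavy chain that carries Slc7a11 to the membrane, rose by 1.45 ± 0.25 (adjusted p = 0.00014). Phgdh, the first enzyme of serine synthesis, was at 90.2 to 109 CPM, median 100.2, against 61.2, 45.9 and 47.9 CPM (0.96 ± 0.11, adjusted p = 2.1e-06). In the ATF4 and amino acid list 11 of 20 were higher, and 6 were with the muscle score; the 1 that fell was Chac1, a glutathione-degrading enzyme, at 8.83 to 13.5 CPM, median 10.9, against 34.1, 20.4 and 25.4 CPM (-1.25 ± 0.23, adjusted p = 0.00027).

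Genes of oxygen sensing and glucose use were split, 11 of 37 higher and 10 lower. Without normal replicate 1 the number higher was 7, without normal replicate 2 the number lower was 5, and with the muscle score 6 were higher and 4 lower. Slc2a1, the glucose transporter GLUT1, was at 144 to 465 CPM, median 213, in carcinoma in situ, against 49.6, 47.6 and 66.9 CPM in normal tissue (2.17 ± 0.39, adjusted p = 0.00026; 1.48 with the muscle score). Car12, a membrane carbonic anhydrase, was at 161 to 278 CPM, median 232, against 92.2, 92.7 and 96.8 CPM (1.29 ± 0.18, adjusted p = 2e-05). Bnip3, a mitophagy receptor that muscle also holds, fell by 0.70 ± 0.13 on the log2 scale (adjusted p = 0.00021), and Egln1, the prolyl hydroxylase that marks HIF1A for degradation, fell by 0.63 ± 0.13 (adjusted p = 0.00077). The hypoxia response element core ACGTG is on either strand in 23 of the 46 windows of this list, against 16.6% of all windows. Those 46 windows belong to 33 genes, of which 20 hold the core, so the windows are not independent. Whether the core goes with a rise or a fall was not tested.

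Cytokine genes of the interleukin-1 family rose in 12 of 23 members and fell in 2, of which 0 were called without normal replicate 3. Il1b was at 4.20 to 41.04 CPM, median 16.5, in carcinoma in situ, against 0.379, 0.225 and 0.352 CPM in normal tissue (5.89 ± 0.97, adjusted p = 0.00011). Its antagonist Il1rn was at 57.1 to 312 CPM, median 144, against 38.8, 33.2 and 44.6 CPM (2.08 ± 0.39, adjusted p = 0.00034). Il1f9, which encodes IL-36 gamma, was at 106 to 253 CPM, median 165, against 71.9, 49.3 and 64.3 CPM (1.43 ± 0.22, adjusted p = 3.8e-05). The groups were apart in all 3 genes. Il1f6 (IL-36 alpha), Casp1, the protease that matures IL-1 beta, and the pore former Gsdmc rose by 1.95 ± 0.40, 1.03 ± 0.16 and 1.22 ± 0.18 (adjusted p of 0.00072, 3.8e-05 and 2.2e-05). Gsdmc has close copies whose reads it may share.

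On the interleukin-17 axis 20 of 25 members were higher and 2 lower (1 without normal replicate 1), with a median log2 fold change of 3.2, or 2.77 with genes at 0 in normal tissue set to their bound. Il17f had 459 counts over the carcinoma in situ samples and 0 over normal tissue, and Il17a had 225 and 0, at least 61.6-fold and 30.2-fold higher against a floor of 3 counts over the group. Ccl20, the chemokine that draws CCR6-bearing cells, had 215 counts against 2, a ratio of pooled levels of 43.3 with a counting interval of 11.8 to 360. Nfkbiz, IkappaB-zeta, was at 66.3 to 102 CPM, median 85.9, against 15.99, 9.63 and 12.4 CPM (2.74 ± 0.33, adjusted p = 4.2e-06). Traf3ip2, the adaptor Act1 of the IL-17 receptor, rose by 0.62 ± 0.10 (adjusted p = 6.3e-05).

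Of the neutrophil chemokines and their receptors, 9 of 11 were higher and 1 lower. Cxcl2 had 781 counts over carcinoma in situ and 0 over normal tissue, at least 104.8-fold higher. Cxcl3 had 607 and 3, a ratio of pooled levels of 81.4 with a counting interval of 27.7 to 396. Cxcl1 was at 1.09 to 19.6 CPM, median 5.37, against 0.163, 0.0563 and 0.132 CPM (5.90 ± 1.09, adjusted p = 0.0003; 5.12 with the muscle score). These genes were uneven within carcinoma in situ: replicates 4 and 11 held the lowest levels of Cxcl1 and Cxcl2. The kappaB site GGANTTTCC, bound by NF-kappaB, is on either strand within 250 bases before the start in 3 of 8 windows of this list (37.5%), against 1.07% of all windows. The 3 are those of Cxcl1, Cxcl2 and Cxcl3, neighbours on chromosome 5 that share ancestry, printed with the site in capitals (GRCm38.p6, plus strand, 5′ to 3′, 62 to 88 bases before the start).
Cxcl1, chr5:90891130-90891228: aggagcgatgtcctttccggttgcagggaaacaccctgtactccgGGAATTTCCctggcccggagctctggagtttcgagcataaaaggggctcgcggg
Cxcl2, chr5:90903758-90903856: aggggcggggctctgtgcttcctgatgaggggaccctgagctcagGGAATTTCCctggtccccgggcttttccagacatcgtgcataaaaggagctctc
Cxcl3, chr5:90785984-90786082: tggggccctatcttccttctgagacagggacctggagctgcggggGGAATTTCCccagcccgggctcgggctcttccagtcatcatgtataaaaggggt

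Growth factors of the epithelium rose in part. Areg, amphiregulin, was at 2.80 to 20.4 CPM, median 9.43, in carcinoma in situ, against 1.35, 1.30 and 1.85 CPM in normal tissue (2.71 ± 0.62, adjusted p = 0.0017; 1.70 with the muscle score). Hbegf, another ligand, rose by 1.47 ± 0.37 (adjusted p = 0.0031; 0.067 with the muscle score) and Rhbdf2, which escorts their sheddase ADAM17 to the surface, by 0.70 ± 0.15 (adjusted p = 0.00082). Erbb4, a receptor of the family, fell by 1.18 ± 0.28 on the log2 scale (adjusted p = 0.0023; -0.59 and adjusted p = 0.11 with the muscle score), and Egfr itself was at 64.96 to 73.6 CPM, median 68.9, against 66.4, 61.2 and 72.6 CPM, which the test did not call (adjusted p = 0.69). Inhba, the activin A chain, was at 3.93 to 35.2 CPM, median 18.2, against 2.11, 3.04 and 2.33 CPM (2.90 ± 0.61, adjusted p = 0.00085). Wnt pathway genes moved about as often as genes in general: 8 of 37 fell (3 with the muscle score) and 4 rose. The number that rose was 1, 1 and 2 without normal replicates 1, 2 and 3 in turn, and 2 with the muscle score. Wnt7b, a ligand of the canonical pathway, was at 34.96 to 64.95 CPM, median 41.9, against 100.1, 82.7 and 109.7 CPM (-1.06 ± 0.19, adjusted p = 0.00022), and the secreted inhibitor Sfrp1 was at 41.8 to 56.4 CPM, median 48.2, against 25.1, 25.7 and 26.9 CPM (0.92 ± 0.14, adjusted p = 5.5e-05).

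Most T cell transcripts were higher in carcinoma in situ. In the T cell and cytotoxic list 17 of 28 members rose and none fell. Icos, a costimulatory receptor of activated T cells, was at 1.58 to 3.69 CPM, median 3.10, in carcinoma in situ, against 0.705, 0.225 and 0.176 CPM in normal tissue (2.96 ± 0.45, adjusted p = 4.2e-05). Without normal replicate 1 the log2 fold change of Icos was 3.82. Cd3g, a chain of the T cell receptor complex, was at 1.57 to 3.93 CPM, median 2.66, against 0.759, 0.169 and 0.659 CPM (2.29 ± 0.42, adjusted p = 0.00025). Trdc, the constant segment of the delta receptor chain, was at 1.84 to 25.4 CPM, median 4.37, against 0.542, 0.507 and 0.572 CPM (3.80 ± 0.69, adjusted p = 0.00025). Its top value was that of carcinoma in situ replicate 2, without which the log2 fold change was 2.89 (adjusted p = 9.4e-05). The list had 11 called members without normal replicate 2.

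Regulatory T cell markers were called higher in 11 of 13 genes. All carcinoma in situ samples lay above all normal ones in 11 of the genes tested and below them in 1. Foxp3, which defines these cells (GRCm38 chromosome X, 7573644 to 7595245, ENSMUSG00000039521.13), was at 0.624 to 1.67 CPM, median 1.15, in carcinoma in situ, against 0.108, 0.225 and 0.132 CPM in normal tissue (2.89 ± 0.42, adjusted p = 2.5e-05). Itgae, the CD103 chain that holds lymphocytes in epithelium, was at 3.89 to 6.25 CPM, median 4.57, against 0.813, 1.52 and 1.10 CPM (2.10 ± 0.34, adjusted p = 6.9e-05). Tnfrsf9, the receptor 4-1BB, and Il2ra, CD25, rose by 3.37 ± 0.57 and 1.43 ± 0.26 (adjusted p of 0.00013 and 0.00022). Ikzf2, Helios, went the other way and fell by 0.56 ± 0.16 on the log2 scale (adjusted p = 0.0081; 0.13 with the muscle score). The count was 11 with the muscle score in the fit.

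Checkpoint genes rose in 11 of 20 and fell in 1. Pdcd1, PD-1, had 236 counts over carcinoma in situ and 2 over normal tissue, a ratio of pooled levels of 47.5 with a counting interval of 13.0 to 394. Havcr2, TIM-3, was at 2.06 to 6.29 CPM, median 3.76, in carcinoma in situ, against 0.488, 0.394 and 0.791 CPM in normal tissue (2.78 ± 0.40, adjusted p = 2.4e-05). Ctla4, the receptor that competes with CD28, was at 0.918 to 2.23 CPM, median 1.11, against 0.379, 0.394 and 0.528 CPM (1.65 ± 0.43, adjusted p = 0.0041). Cd80, a ligand of CTLA-4 and CD28, was at 2.05 to 6.24 CPM, median 4.61, against 0.921, 0.563 and 1.10 CPM (2.35 ± 0.36, adjusted p = 4.2e-05). In these 4 genes every carcinoma in situ sample was above the normal range. Cd274, PD-L1, was at 6.73 to 12.5 CPM, median 10.3, against 4.66, 5.41 and 6.02 CPM, a log2 fold change of 0.88 ± 0.37 that was not called (adjusted p = 0.062), although no sample of carcinoma in situ was as low as the highest normal one. Cd274 was called with DESeq2 (adjusted p = 0.039), with only the 2 groups in the fit (0.01) and with the muscle score (1.40 on the log2 scale, adjusted p = 0.014). The gene that fell was Nt5e, CD73, by 0.62 ± 0.23 on the log2 scale (adjusted p = 0.038). It was not called with no filter on low counts or with the muscle score (adjusted p of 0.062 and 0.056), nor without carcinoma in situ replicate 1, 2, 4 or 10 or without normal replicate 2 or 3 (adjusted p of 0.056 to 0.15).

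Antigen presentation genes were higher. MHC class I genes rose in 15 of 20 and class II genes in 10 of 11, with none lower in either list. Nlrc5, the activator of class I transcription, was at 32.4 to 52.4 CPM, median 40.03, in carcinoma in situ, against 10.7, 5.69 and 13.9 CPM in normal tissue (2.06 ± 0.24, adjusted p = 3.2e-06). H2-K1, a class I heavy chain, was at 355 to 540.0 CPM, median 467, against 205, 122 and 199 CPM (1.38 ± 0.21, adjusted p = 4.2e-05). H2-Ab1, a class II chain, was at 82.2 to 141 CPM, median 123, against 38.5, 43.2 and 49.7 CPM (1.41 ± 0.22, adjusted p = 6.8e-05). H2 genes resemble each other, so their separate counts are uncertain. Ciita, the activator of class II, rose by 1.43 ± 0.24 (adjusted p = 0.00013), and Cd207, langerin of Langerhans cells, was at 3.63 to 8.52 CPM, median 6.32, against 1.30, 1.86 and 2.20 CPM (1.76 ± 0.37, adjusted p = 0.00078).

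The interferon response list did not rise with them: 3 of 33 were higher and 3 lower, below the background shares. With the muscle score 5 were higher and 0 lower, without normal replicate 2 1 was higher, and 0 or 1 were lower without any 1 normal sample or without carcinoma in situ replicate 2, 7 or 10. Those that rose were the CXCR3 ligands Cxcl9 and Cxcl10 and the factor Irf1, all induced by interferon gamma. Cxcl10 was at 1.32 to 10.4 CPM, median 7.29, in carcinoma in situ, against 0.434, 0.282 and 0.703 CPM in normal tissue (3.76 ± 0.81, adjusted p = 0.0011), and Irf1 rose by 0.64 ± 0.19 (adjusted p = 0.011; 0.064 without normal replicate 2). Cxcl9 was at 3.71 to 17.8 CPM, median 13.1, against 0.976, 1.24 and 3.43 CPM (2.71 ± 0.80, adjusted p = 0.0098; 3.39 with the muscle score, 2.49 and adjusted p = 0.055 without normal replicate 2, and 3.50 without normal replicate 3), and limma-voom did not call it (adjusted p = 0.057).

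Falls in the B cell, plasma cell and mast cell lists depended on which samples were in the fit. B cell and plasma cell members fell in 9 of 13, in 2 without normal replicate 1 and in 15 without normal replicate 3, where more of its genes passed the filter on low counts. Tnfrsf13c, the BAFF receptor, was at 0.125 to 0.844 CPM, median 0.308, in carcinoma in situ, against 1.57, 1.63 and 1.41 CPM in normal tissue (-1.99 ± 0.45, adjusted p = 0.0013). All 9 erythroid genes tested were lower, and 0 were without normal replicate 1. Mast cell genes fell in 7 of 14, but in 1 to 4 without any 1 normal sample or without carcinoma in situ replicate 1, 2, 7 or 10, in 2 with a salivary score as covariate and in 0 with the muscle score. The mucosal mast cell proteases went up instead. Mcpt1 had 412 counts over carcinoma in situ and 1 over normal tissue, a ratio of pooled levels of 166 with a counting interval of 29.6 to 6566. Mcpt2 had 213 and 0, at least 28.6-fold higher.

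Among macrophage genes 13 of 29 were higher and 5 lower, against 7 higher without normal replicate 2, 2 lower without normal replicate 3, and 8 higher and 2 lower with the muscle score. The monocyte chemokine Ccl2 was at 2.97 to 9.59 CPM, median 5.01, in carcinoma in situ, against 0.488, 2.03 and 2.11 CPM in normal tissue (1.92 ± 0.44, adjusted p = 0.0015). Cd163, the haemoglobin scavenger receptor of tissue macrophages, was at 8.03 to 14.2 CPM, median 10.2, against 27.6, 19.8 and 25.5 CPM (-1.20 ± 0.23, adjusted p = 0.00035). Neutrophil genes rose in 13 of 24 and fell in 1. The median log2 fold change of that list was 2.5. In 10 of its members every carcinoma in situ sample was above every normal one, beside 14.1% of all genes. Its summed level, to which the most abundant members add most, was not raised: 809 to 1945 CPM, median 1264, in carcinoma in situ, against 2396, 1501 and 2367 CPM in normal tissue. Acod1, the enzyme that makes itaconate, was at 0.501 to 7.85 CPM, median 1.91, against 0.108, 0 and 0.0879 CPM (5.28 ± 1.25, adjusted p = 0.0021). Its log2 fold change was 4.65 without carcinoma in situ replicate 7.

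In the stroma, few fibroblast and matrix genes changed: 4 of 38 rose and 5 fell, both under the background shares. The number that fell was 3 without normal replicate 2 and 2 without normal replicate 3, and with the muscle score 2 rose and 1 fell. Dcn, the small proteoglycan decorin, fell to 402 to 641 CPM, median 489, in carcinoma in situ, against 985, 730.5 and 828 CPM in normal tissue (-0.79 ± 0.17, adjusted p = 0.00077). Col12a1 and Tnc, matrix proteins of remodelled stroma, rose by 2.39 ± 0.60 and 1.53 ± 0.47 (adjusted p of 0.0033 and 0.012). Neither was called with only the 2 groups in the fit (adjusted p of 0.077 and 0.085), nor Tnc with the muscle score (adjusted p = 0.08). Timp1, an inhibitor of matrix metalloproteinases, was at 2.003 to 19.6 CPM, median 6.06, against 0.705, 0.845 and 0.440 CPM (3.64 ± 0.70, adjusted p = 0.00041). Adam12 rose by 2.56 ± 0.53 (adjusted p = 0.00067), whereas Timp3 fell by 0.90 ± 0.19 on the log2 scale (adjusted p = 0.00072). Matrix proteases and the plasminogen system had 14 of 31 members higher and 3 lower, with 9 higher without normal replicate 2, and 9 higher and 1 lower with the muscle score.

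Many vessel and nerve markers were lower. Endothelial genes fell in 11 of 25 and rose in 3, and 7 fell without normal replicate 2 and 7 without carcinoma in situ replicate 7. Cd36, a fatty acid transporter that muscle and fat express too, was at 171 to 338 CPM, median 262, in carcinoma in situ, against 923, 591 and 489.5 CPM in normal tissue (-1.33 ± 0.23, adjusted p = 0.00013), and Pecam1, CD31, fell by 0.60 ± 0.13 on the log2 scale (adjusted p = 0.0013). The 3 members that rose were Icam1, Selp and Sele, adhesion molecules for leukocytes on inflamed vessels. Icam1, chosen after its values were seen, rose by 0.65 ± 0.17 (adjusted p = 0.0035). Selp was at 4.41 to 43.1 CPM, median 17.1, against 3.09, 1.91 and 2.20 CPM (2.999 ± 0.53, adjusted p = 0.0002), and Sele rose by 2.46 ± 0.60 (adjusted p = 0.0024). Schwann cell and nerve genes fell in 11 of 18. Drp2, of the complex that ties myelin to its basal lamina, was at 7.19 to 13.3 CPM, median 11.5, against 41.4, 37.2 and 23.8 CPM (-1.60 ± 0.24, adjusted p = 3.2e-05), and Mbp, myelin basic protein, was at 50.7 to 88.7 CPM, median 75.4, against 189, 168 and 122 CPM (-1.08 ± 0.16, adjusted p = 4e-05). With the muscle score in the fit 8 nerve genes and 3 endothelial genes were called lower. Nrp2, a lymphatic co-receptor for VEGF-C, fell by 0.69 ± 0.15 on the log2 scale (adjusted p = 0.0012).

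Muscle and respiratory chain genes were lower in most cases. Of 35 skeletal muscle genes 24 fell, and 8 did without normal replicate 2. With the muscle score 2 were called lower, but that score is the mean of these same genes, so this drop was set in advance. Mb, myoglobin, was at 1889 to 3415 CPM, median 2948, in carcinoma in situ, against 4385, 6685 and 5485 CPM in normal tissue (-1.01 ± 0.20, adjusted p = 0.00058). All 40 nuclear genes of oxidative phosphorylation and all 11 mitochondrially encoded genes tested fell. The nuclear set had a median log2 fold change of -0.55, and 17 members were called without normal replicate 2 and 4 with the muscle score. Of the mitochondrially encoded genes 7 were called without normal replicate 2 and 6 with the muscle score. mt-Nd1, a subunit of complex I, was at 4828 to 7786 CPM, median 6567, against 11208, 14258 and 10542 CPM (-0.91 ± 0.17, adjusted p = 0.00025). All 6 carcinoma in situ samples were below the 3 normal ones for it.

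Glucocorticoid-responsive genes fell in 8 of 15, and in 3 without normal replicate 1. Zbtb16 was at 12.3 to 23.6 CPM, median 18.9, in carcinoma in situ, against 87.2, 43.2 and 34.2 CPM in normal tissue (-1.58 ± 0.25, adjusted p = 7.4e-05), and Klf9 at 70.4 to 111 CPM, median 83.03, against 174, 156 and 145 CPM (-0.85 ± 0.15, adjusted p = 0.00019). In lipid metabolism, Degs2, which makes phytoceramide, was at 6.12 to 18.7 CPM, median 9.76, against 0.596, 0.845 and 1.63 CPM (3.37 ± 0.48, adjusted p = 2.5e-05; 2.73 with the muscle score). Cholesterol and fatty acid synthesis genes rose in 17 of 27, with 4 called without normal replicate 2, 9 without normal replicate 3 and 3 with the muscle score. Scd2, a fatty acid desaturase, rose by 0.89 ± 0.21 (adjusted p = 0.0016). Ptges, a prostaglandin E synthase, was at 45.02 to 92.6 CPM, median 59.4, against 27.04, 22.4 and 27.2 CPM (1.33 ± 0.23, adjusted p = 0.00018), and Pla2g2f, a secreted phospholipase of the epidermis, at 12.3 to 25.2 CPM, median 14.7, against 36.7, 39.3 and 40.5 CPM (-1.23 ± 0.18, adjusted p = 2.3e-05).

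Set against its neighbouring stages, carcinoma in situ differed from dysplasia in 964 genes (5.47% of 17638), 528 (2.99%) higher and 436 (2.47%) lower, and from invasive carcinoma in 0 (0.0%). For invasive carcinoma 1259 genes had an unadjusted p under 0.05, and DESeq2 and limma-voom called 0 and 0. This does not show that the 2 carcinoma stages are alike. Their codes share a letter, whereas those of dysplasia have another, so a batch by letter could enter only the comparison with dysplasia. That was not tested. Of the calls against dysplasia 54.8% were higher, and 67.8% of 1076 with upper-quartile scaling. The count against dysplasia depended on single libraries: it was 164 without carcinoma in situ replicate 7, 222 without replicate 10, 272 without replicate 2, 345 to 640 without dysplasia replicate 2, 3, 4, 5, 6 or 7, and 2201 without carcinoma in situ replicate 4.

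Il1b, Inhba, Mmp13, Mmp3 and Saa3 were among the 8 largest called rises over dysplasia among genes that averaged 10 CPM or more in either stage. Il1b was at 4.20 to 41.04 CPM, median 16.5, in carcinoma in situ, against 1.60 to 4.89 CPM, median 2.53, in dysplasia (2.75 ± 0.52, adjusted p = 0.0083). Inhba was at 3.93 to 35.2 CPM, median 18.2, against 2.31 to 4.56 CPM, median 3.47 (2.42 ± 0.42, adjusted p = 0.0067). In both of these genes 5 of the 6 carcinoma in situ samples were above all 7 dysplasia samples, and replicate 4 was within their range. Mmp13, collagenase 3, was at 0.743 to 26.4 CPM, median 16.8, against 0.371 to 4.11 CPM, median 0.625 (3.67 ± 0.83, adjusted p = 0.017), and Mmp3, stromelysin 1, at 6.08 to 71.5 CPM, median 40.4, against 3.48 to 11.7 CPM, median 4.89 (2.61 ± 0.53, adjusted p = 0.01). Saa3 was at 3.28 to 190.2 CPM, median 41.3, against 0.578 to 5.65 CPM, median 1.47 (4.99 ± 0.90, adjusted p = 0.0083). In Mmp13, Mmp3 and Saa3, carcinoma in situ replicates 4 and 11 were within the dysplasia range. Without carcinoma in situ replicate 7 the log2 fold change of Saa3 over dysplasia was 4.29, and without dysplasia replicate 1 that of Mmp13 was 4.47.

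Krt76, Crnn and Tchh were among the 8 largest called falls below dysplasia by the same rule. Krt76 was at 172 to 1196 CPM, median 548, in carcinoma in situ, against 937 to 2463 CPM, median 1544, in dysplasia (-1.28 ± 0.36, adjusted p = 0.036), and Crnn at 25.5 to 134 CPM, median 57.4, against 108 to 286 CPM, median 182 (-1.29 ± 0.38, adjusted p = 0.045). Tchh, trichohyalin, was at 261 to 1347 CPM, median 656, against 1024 to 2933 CPM, median 2345 (-1.59 ± 0.34, adjusted p = 0.012). The ranges overlapped in these genes, with replicate 1 of carcinoma in situ the highest of its group in each. Leaving out each of the 13 samples of the 2 groups in turn, Il1b, Inhba, Saa3, Mmp3 and Tchh were called in 13, 13, 13, 13 and 13 of 13 fits, Mmp13 in 12, which lacked the one without carcinoma in situ replicate 7 (adjusted p = 0.051), and Krt76 and Crnn in 4 and 3. The calls of Krt76 and Crnn were absent without carcinoma in situ replicate 2, 7, 10 or 11 and without dysplasia replicate 2, 3, 5, 6 or 7, and that of Crnn also without dysplasia replicate 4 (adjusted p of 0.051 to 0.13). Krt76 and Crnn were also not called with only the 2 groups in the fit (adjusted p of 0.093 and 0.097) or with no filter on low counts (0.094 and 0.1), nor Mmp13 with only the 2 groups (0.054).

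By list, matrix proteases and the plasminogen system had 10 of 31 members higher than in dysplasia and none lower, beside 2.99% of all genes, and 8 to 14 in the 13 fits that left out 1 sample. Neutrophil chemokines and receptors had 7 of 11 higher, but 2 without carcinoma in situ replicate 7, 3 without replicate 2 or 10, and 4 without dysplasia replicate 2, 3 or 5. Oral suprabasal genes had 7 of 17 lower, beside 2.47% of all genes; the count was 0 without carcinoma in situ replicate 2, 7 or 10, 3 without replicate 11, and 1 to 4 without dysplasia replicate 2, 3, 5, 6 or 7. The listed small proline-rich protein genes, all 13 called higher than in normal tissue, had 0 of 13 called against dysplasia.

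**Figure D5:**
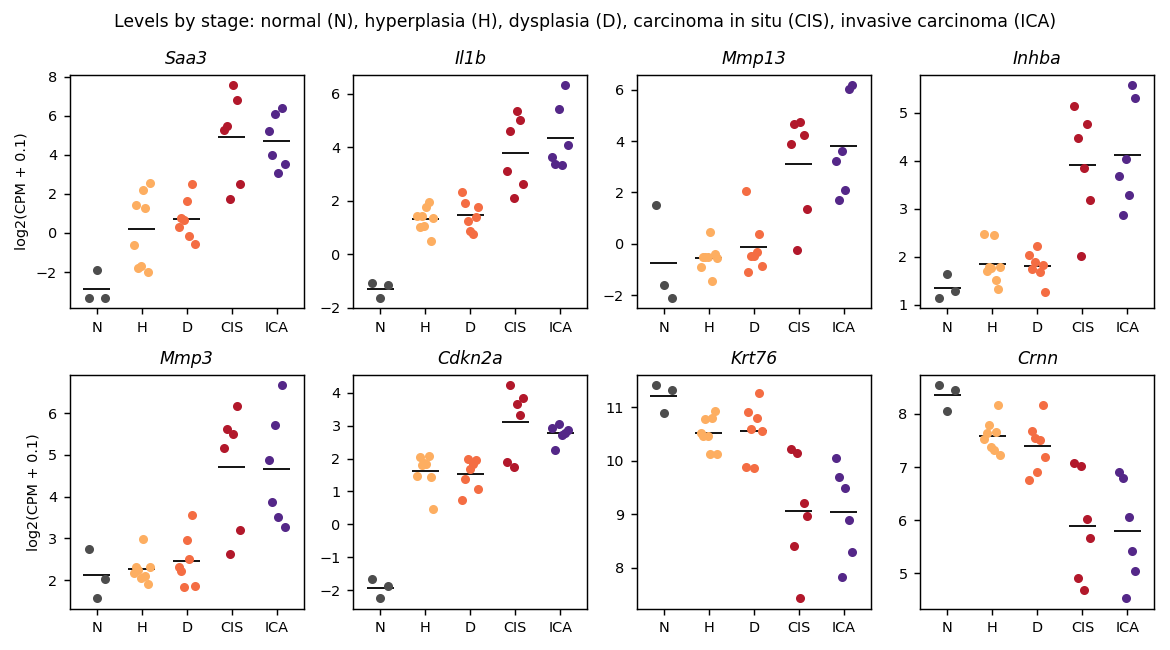
Log2(CPM + 0.1) of 8 genes in each sample by stage, from normal (N, n = 3) through hyperplasia (H, n = 8), dysplasia (D, n = 7) and carcinoma in situ (CIS, n = 6) to invasive carcinoma (ICA, n = 6); bars are means of the plotted values. Saa3, Il1b, Mmp13, Inhba and Mmp3 are higher in most carcinoma in situ samples than in dysplasia, and Krt76 and Crnn are lower in most.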

How the data were processed

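Total RNA was extracted with an AllPrep kit and sequenced from TruSeq stranded mRNA libraries, per the labels' protocols. The deposited table holds raw read counts per gene made by the authors; per the submitters' processing notes, cutadapt 2.4 and STAR 2.7.2a were used with the GRCm38 build. How reads were assigned to genes, whether by strand and with which annotation, is not given in the sources used here, so reads of overlapping or antisense genes cannot be told apart. Of 55487 identifiers 55227 (99.53%) matched GENCODE M21, from which symbols and coordinates came.

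Counts were filtered by stage with filterByExpr, which left 17638 genes, scaled with TMM (factors 0.8916 to 1.057) and fitted with edgeR 4.0.16 (glmQLFit, robust, 1 mean per stage over all 30 samples; common dispersion 0.0576) in R 4.3.3; glmQLFTest p-values were adjusted by Benjamini-Hochberg over all genes. Standard errors are the log2 fold change divided by the root of the F statistic. CPM are not corrected for gene length, so levels are compared between samples, not genes. Intervals and floors for genes at 3 or fewer normal counts (exact, 95%) cover counting error only. Alternatives used DESeq2 1.42.0 and limma 3.58.1 (voom). Promoters are RefSeq windows, of which 250 bases before the start were searched.

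Named genes were the 12 largest called changes each way with at least 10 CPM in the higher group, the 8 smallest adjusted p each way, each list's 6 smallest adjusted p, the 8 largest called changes each way over dysplasia, all members of short lists, and the driver and checkpoint lists; some of these genes are not reported here, although they stay in the tests and list counts. The 60 gene lists and these rules were chosen with earlier results of these data known. The 6 carcinoma in situ and 3 normal samples share only the numbers 1 and 2 in their codes, which the labels do not describe as pairs.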

Additional observations from a re-analysis of the deposited data

Results flagged for a closer look

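In 10 of the 150 genes of the comparison with normal tissue that were tested for it, 1 carcinoma in situ sample lay far from the other 5 by Dixon's ratio on log2 CPM; chance flags about 1 in 20 groups. Replicate 7 was the lowest for the myelin genes Mbp (50.7 CPM, against 73.2 to 88.7 CPM in the other samples) and Drp2 (7.19 CPM, against 10.8 to 13.3 CPM), for the co-receptor Nrp2 (21.9 CPM, against 31.9 to 39.9 CPM) and for Rb1 (33.4 CPM, against 39.2 to 42.8 CPM). Replicate 4 was the lowest for the epithelial genes Trp63 (209.7 CPM, against 288 to 324 CPM) and Tgm1 (391 CPM, against 523 to 597 CPM), and the highest for Rrm2b (25.9 CPM, against 20.9 to 22.3 CPM). Replicate 2 was the highest for Slc3a2 (452 CPM, against 136 to 207 CPM) and Pmaip1 (13.9 CPM, against 4.11 to 6.45 CPM), and replicate 1 was the lowest for Cxcl9 (3.71 CPM, against 11.7 to 17.8 CPM).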

How the results depend on the processing

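Against normal tissue the count of calls (6630) was within 1.5 times of itself with DESeq2, limma-voom, RLE or upper-quartile factors, no expression filter, muscle and mitochondrial genes removed, a salivary score, or only the 2 groups in the fit. It moved to 3972 at an adjusted p under 0.01, 748 in a test against a 1.5-fold change and 2628 with a muscle score, and ranged from 4238 (without normal replicate 2) to 7306 with 1 sample left out. Against dysplasia (964) it moved to 1520 with DESeq2, 2270 with limma-voom, 2584 with the muscle score, 327 with no expression filter, 200 with only the 2 groups, 62 at an adjusted p under 0.01 and 0 in the 1.5-fold test, and ranged from 164 to 2201 with 1 sample left out; against invasive carcinoma it was 0 or 1. Egfr, not called, had a log2 fold change of -0.08 with the muscle score and ranged from -0.01 to 0.12 with 1 sample left out. No other of the 150 genes given against normal tissue changed direction under these alternatives. With the muscle score 12 of them were no longer called, 1 (Cd274) became called and 18 moved by over 1.5-fold, 14 toward 0 and 4 away from it (Klk1, Klk1b9, Duox2 and Cxcl9); limma-voom moved 13. The causes were not tested.

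A replicate block on the numbers of the sample codes gave 5830 calls against normal tissue and 282 against dysplasia. Carcinoma in situ and normal share only the numbers 1 and 2; the deviations of same-numbered samples from their group means correlated at 0.107 and 0.0535, and the labels describe no pairing. Of the 4 numbers shared with dysplasia 1 had a correlation over 0.1 (range -0.328 to 0.125). No correlations of differently numbered samples were set beside these few values, so they cannot decide whether same-numbered samples are paired. With the block the falls below dysplasia of Tchh, Krt76 and Crnn were not called (adjusted p of 0.085, 0.23 and 0.25).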
